A study of Caenorhabditis elegans with 2 samples.

Results

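Of the 2035 TBX-2 binding peaks on chromosomes I to IV of Caenorhabditis elegans late embryos, 340 (16.7%, 95% interval 15.1 to 18.4) lay between a pair of protein-coding genes that are transcribed away from each other. These peaks at divergent shared promoters were chosen by position alone. The summit had to lie within 1 kb upstream of the 5′ end of at least 1 plus-strand and at least 1 minus-strand gene, and not within 500 bp of a tRNA, snoRNA or snRNA gene. Peaks on chromosomes V and X and on mitochondrial DNA were not considered, and the 340 made up 11.1% of the full set of 3053 peaks. By position alone 352 peaks qualified, of which 12 were left out for a nearby small RNA gene. The 5′ end is the outermost annotated start of the gene. It falls in most cases at the start of an annotated 5′ untranslated region, which 583 of the 654 flanking genes had (89.1%).

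When neighbouring genes point away from each other, the DNA between their 5′ ends carries the regulatory sequence of both, so a protein bound there cannot be assigned to one gene by position. Such head-to-head arrangements are common in compact genomes, and in many animals they often join housekeeping genes. TBX-2 belongs to the T-box family, which binds a short sequence through the T-box domain; in the worm it is known for its part in making the anterior pharyngeal muscles. Many worm mRNAs receive a spliced leader, so an annotated 5′ end can lie downstream of the true transcription start.

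The chromatin came from whole late embryos of strain OP159, which has the genotype unc-119(ed3) III; wgIs159, so all samples carried the unc-119 mutation and an integrated transgene. That transgene adds a copy of TBX-2 with GFP and FLAG at its C-terminus, and an antibody against GFP pulled the protein down. Hermaphrodite embryos were taken 3.5 h after egg bleaching, in 2 biological replicates that form 1 group. Whole embryos mix all tissues, and a peak does not show which cells were bound. No peak list from an untagged strain was analysed here, so the part that promoter openness has in these values was not tested.

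Sequences around the 8 strongest summits on chromosomes II, III and IV are shown so that the elements described further on can be read in place. They are examples and do not stand for the base composition of all strong peaks. Each is the plus strand of WBcel235, 5′ to 3′, within 50 bp of the summit and cut where a window would pass an annotated 5′ end; no window overlaps an exon. Capitals mark GCGCAC or its reverse complement GTGCGC, and GGGCGG or its reverse complement CCGCCC. They lie at chrIII:10759196-10759296 (K01G5.10 and tasp-1), chrIV:390469-390551 (ears-2 and uncp-18), chrIV:654878-654978 (rpl-15 and K11H12.8), chrIV:1745700-1745800 (Y41D4A.6 and Y41D4A.4), chrII:11967691-11967791 (W03C9.5 and mex-1), chrIII:10461287-10461387 (ecps-1 and atx-2), chrIV:4660492-4660592 (F29B9.11 and jmjd-1.2) and chrIII:4568701-4568796 (mlcd-1 and idhg-1).
K01G5.10/tasp-1: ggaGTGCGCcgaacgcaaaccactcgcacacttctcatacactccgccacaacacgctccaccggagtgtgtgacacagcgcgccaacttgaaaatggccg
ears-2/uncp-18: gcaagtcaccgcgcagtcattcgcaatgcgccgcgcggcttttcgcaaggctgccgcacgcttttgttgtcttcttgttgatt
rpl-15/K11H12.8: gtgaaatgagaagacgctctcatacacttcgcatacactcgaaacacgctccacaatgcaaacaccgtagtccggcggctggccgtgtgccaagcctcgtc
Y41D4A.6/Y41D4A.4: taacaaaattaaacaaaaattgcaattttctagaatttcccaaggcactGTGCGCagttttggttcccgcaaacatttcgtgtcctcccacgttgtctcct
W03C9.5/mex-1: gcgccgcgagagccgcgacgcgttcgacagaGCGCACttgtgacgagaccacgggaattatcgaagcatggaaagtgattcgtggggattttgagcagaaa
ecps-1/atx-2: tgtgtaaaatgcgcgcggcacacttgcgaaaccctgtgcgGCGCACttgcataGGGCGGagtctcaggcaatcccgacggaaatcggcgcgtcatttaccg
F29B9.11/jmjd-1.2: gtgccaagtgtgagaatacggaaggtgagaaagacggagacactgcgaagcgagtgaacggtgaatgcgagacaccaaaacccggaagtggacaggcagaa
mlcd-1/idhg-1: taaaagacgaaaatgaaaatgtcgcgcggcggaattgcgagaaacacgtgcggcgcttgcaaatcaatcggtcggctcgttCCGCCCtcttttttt

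Both peaks with the 7-base T-box sequence GGTGTGA within 50 bp of the summit are shown too, since they were the only ones among the 340. Capitals mark its reverse complement TCACACC, which overlaps the GA repeat (as TCTCTCTC) in the second window, and GCGCAC. They lie at chrIII:7162435-7162535 (syf-2 and K04G7.1) and chrIV:5354113-5354213 (Y4C6B.7 and Y4C6B.1).
syf-2/K04G7.1: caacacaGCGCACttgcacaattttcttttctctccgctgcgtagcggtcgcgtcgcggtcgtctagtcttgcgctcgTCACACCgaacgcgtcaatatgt
Y4C6B.7/Y4C6B.1: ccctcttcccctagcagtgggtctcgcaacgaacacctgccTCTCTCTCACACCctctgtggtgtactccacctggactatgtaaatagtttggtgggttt

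Divergent promoters held a TBX-2 summit more often than the spaces between genes that follow each other on the same strand. Of 1620 divergent spaces of 50 to 2000 bp, 317 (19.6%, interval 17.7 to 21.6) held a summit, against 217 of 4288 tandem spaces (5.06%, interval 4.42 to 5.76). Spaces near small RNA genes were left out, 40 divergent and 60 tandem. A divergent space has a 5′ end on both sides, a tandem space on 1 side only. The shares are per space and not per start, and the part that the number of starts has in the difference was not tested. With the strongest 3053 peaks of each replicate in place of the shared set, the share was 18.4% in replicate 1 and 18.8% in replicate 2 for divergent spaces (18.6% ± 0.262, SD, n = 2), and 4.92% and 5.20% for tandem spaces (5.06% ± 0.198, SD, n = 2). The shares of the divergent and the tandem spaces therefore lay further apart than the replicates did. All intervals are exact binomial 95% intervals that cover counting error over spaces, peaks or genes only, and a test between samples was not possible with 1 group.

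The difference per space was present at matched length. Among spaces longer than 200 and up to 500 bp, 131 of 483 divergent spaces held a summit (27.1%), against 83 of 1028 tandem spaces (8.07%). From there up to 1000 bp the shares were 25.6% of divergent and 6.55% of tandem spaces. The shortest spaces, 50 to 200 bp, were bound less in both kinds, at 10.2% of divergent spaces, 18 of 176, and 0.750% of tandem spaces, 9 of 1200. In the longest bin, above 1000 and up to 2000 bp, the shares were 7.76% of divergent and 5.50% of tandem spaces, and their intervals overlapped (5.44 to 10.7 and 4.13 to 7.15). There a divergent space counts as bound only if the summit is within 1 kb of both starts. A tandem space counts only if the summit is within 1 kb of its single start. Both rules leave out part of the space. Tandem spaces inside operons were not told apart from the rest, and their part in the low shares was not tested.

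**Figure D1:**
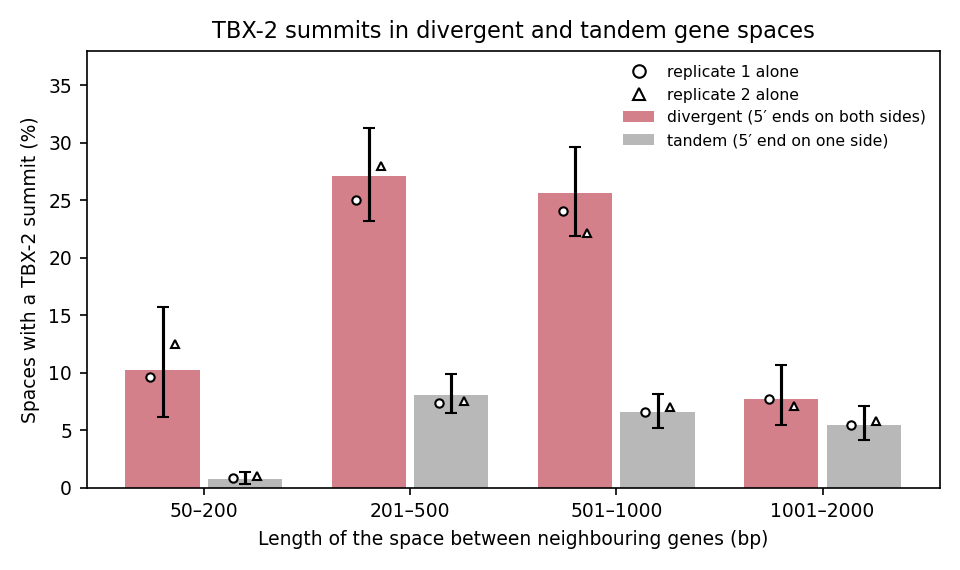
Share of gene spaces on chromosomes I to IV that held a TBX-2 summit (y axis, percent) by the length of the space (x axis, bp), for divergent spaces (red) and tandem spaces (grey). Bars are the shared peak set with exact 95% intervals, and open circles and triangles are replicate 1 and replicate 2 alone. The divergent bars stand at 27.1% and 25.6% in the middle bins, above the tandem bars at 8.07% and 6.55%, and the bars are close together only in the longest bin.

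The same held on each chromosome. The share of divergent spaces with a summit was 22.1% on I, 16.6% on II, 23.6% on III and 16.8% on IV, while that of tandem spaces was 5.77%, 5.60%, 5.00% and 3.83% on the same chromosomes. Chromosomes I and III had higher shares of bound divergent spaces than II and IV in both replicates: 20.3% and 22.8% against 15.9% and 15.4% in replicate 1, and 20.6% and 25.6% against 14.3% and 15.9% in replicate 2. Read as a share of the peaks of each chromosome, the 340 took 16.4% on I, 16.4% on II, 17.1% on III and 17% on IV.

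Peak signal, the value that the authors' peak caller gave each peak, had a median at divergent promoters above that of one-strand and other peaks and close to that of peaks near small RNA genes. Its interval overlapped that of one-strand peaks. The median was 149 (interval of the median 134 to 165, n = 340), against 130.0 (124 to 138, n = 586) for peaks upstream of genes on 1 strand only and 114 (110.5 to 118, n = 929) for peaks in other places. It was 147.7 (135 to 159.8, n = 180) for peaks near a tRNA, snoRNA or snRNA gene. The signal ran from 81.8 to 884 at divergent promoters, with quartiles of 107.5 and 217. The median at divergent promoters was 1.14 times that of the one-strand peaks in the pooled list, 1.11 times in replicate 1 (86.0 and 77.6) and 1.12 times in replicate 2 (66.7 and 59.5). Each list has its own signal scale. Of the 340 peaks, 24 (7.06%) ranked among the 100 strongest of the whole set, as did 18 of the one-strand peaks (3.07%) and 12 of the other peaks (1.29%). Among the 500 strongest the shares were 25.3%, 17.6% and 9.80% of these 3 classes, and 24.4% of the peaks near small RNA genes.

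Most of these peaks were strong in both replicates. In all, 281 of the 340 (82.6%, interval 78.2 to 86.5) overlapped a peak of the 3053 strongest in both replicates; the background is 75.9% of all 2035 peaks of chromosomes I to IV. The share was 77.3% (73.7 to 80.6) for one-strand peaks and 70.9% (67.9 to 73.8) for other peaks, and the first of these intervals overlaps that of the 340. Peaks near small RNA genes had 84.4% (78.3 to 89.4). The set was selected for reproducibility by the authors and stronger peaks reach the top lists more easily, so these shares describe the set. Replicate 1 had 311 of the 340 among its strongest and replicate 2 had 306 (90.7% ± 1.04, SD, n = 2), and 4 were in neither top list. Across the 340 peaks the ranks in the replicates had a Spearman correlation of 0.859, and the log2 signals a Pearson correlation of 0.878. A few peaks near the end of the list differed more: the peak between ran-1 and dkc-1 ranked 1959 in replicate 1 and 10605 in replicate 2, and that between rpl-31 and sac-2 ranked 2004 and 9026. The reverse was seen between F01G4.6 and pfd-1, with ranks of 3858 and 886.

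**Figure D2:**
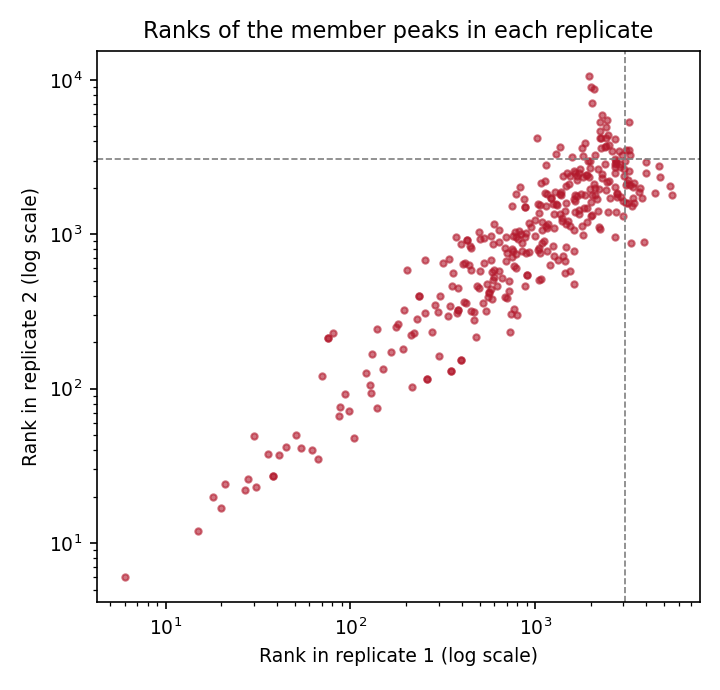
Rank by signal of each of the 340 peaks at divergent promoters in replicate 1 (x axis, log scale) and replicate 2 (y axis, log scale), where 1 is the strongest peak of the replicate. Dashed lines mark rank 3053, the length of the top lists. The points follow the diagonal, the strongest peak has rank 6 in both replicates, and the widest scatter is past rank 1000, up to 10605 in replicate 2.

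The strongest peak lay 61 bp upstream of tasp-1, a threonine aspartase, and 724 bp upstream of K01G5.10 (chromosome III 10759035 to 10759459). Its signal was 522 in replicate 1 and 362 in replicate 2, and it ranked 6 in both and in the pooled list. The next, between ears-2, a mitochondrial glutamyl-tRNA synthetase, and uncp-18, filled the shortest space of all, with only 91 bp between the 5′ ends. Its signal was 403 in replicate 1 and 302 in replicate 2, ranks 15 and 12. The third peak lay almost midway between vps-51, which tethers vesicles at the Golgi, and lin-35, the retinoblastoma homologue, 194 and 224 bp from their starts (signal 382 and 268). The fourth lay 230 bp from chaf-2, a subunit of the chromatin assembly factor CAF-1, and 269 bp from Y71G12B.30 (signal 352 and 272). Each of these 4 peaks was among the 20 strongest of both replicates.

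The next 8 peaks had pooled signals between 509.8 and 599. They lay at rpl-15, a large-subunit ribosomal protein, with K11H12.8; at Y41D4A.4 with Y41D4A.6; at mex-1, an RNA-binding protein of the early embryo, with W03C9.5; and at atx-2, the ataxin-2 homologue, with ecps-1. The others lay at jmjd-1.2, a histone demethylase, with F29B9.11; at idhg-1, a subunit of mitochondrial isocitrate dehydrogenase, with mlcd-1; at prp-19, a splicing factor, with K10D2.5; and between the histone genes his-67 and his-68. All 8 ranked between 21 and 49 in both replicates.

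The remaining 8 of the 20 strongest had pooled signals from 389.9 to 494. They lay between snx-13, a sorting nexin, and snr-1, a core protein of the splicing snRNPs; between nrde-2, a nuclear RNA interference factor, and atad-3, a mitochondrial membrane ATPase; between cux-7 and C07H6.2; and between Y92H12BR.2 and Y92H12BR.3. The others lay between sup-35, the maternal toxin to which pha-1 is the antidote, and Y48A6C.4; between eif-3.E, a subunit of translation initiation factor 3, and B0511.17; between nhl-2, a cofactor of microRNA silencing, and tag-340; and between rpl-20 and Y17G9B.5. Their ranks ran from 45 to 104 in replicate 1 and from 35 to 72 in replicate 2. No peak at a divergent promoter flanked tbx-2 or unc-119.

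By the rule of choice each summit lay between divergent 5′ ends, and most summits were not on a start. The 5′ ends flanking a peak were 543 bp apart at the median (quartiles 373 and 766, range 91 to 1658). The summit lay 163 bp from the nearer end (interval of the median 148 to 181; quartiles 86 and 242.5) and 361 bp from the farther one. For 208 peaks (61.2%) the nearer end was 100 to 300 bp away, while 44 summits were within 50 bp of it. The nearer gene was on the plus strand in 183 cases and on the minus strand in 157. In 149 peaks (43.8%) the summit lay in the middle of the space when it is divided into 3 equal lengths. In 238 (70%) it was within 500 bp of both ends, and 14 were more than 900 bp from the farther end, just inside the limit of 1 kb. Only 3 summits lay inside any protein-coding gene and none of the 340 in an exon, which follows in part from the rule.

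**Figure D3:**
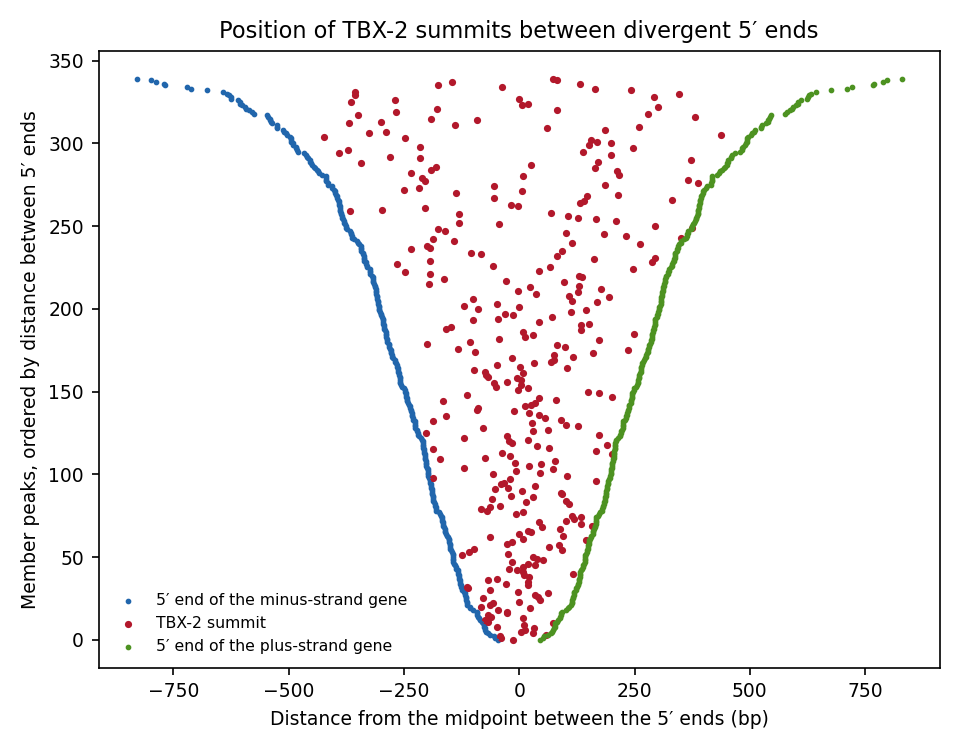
Position of each summit (red) relative to the midpoint between the divergent 5′ ends (x axis, bp), with the minus-strand end in blue and the plus-strand end in green. Each row is 1 of the 340 peaks, ordered from the shortest space, 91 bp, at the bottom to the longest, 1658 bp, at the top. Summits lie between the ends by the rule of choice. In 149 rows the summit is in the middle part of the space when it is cut into 3 equal lengths.

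Peaks in short spaces had signals in the same range as those in long ones. In the 18 spaces of 91 to 200 bp the median signal was 169.7, with 17 of the 18 in both top lists (94.4%). It was 141 for 135 peaks in spaces of up to 500 bp, 151 for 152 peaks in spaces of up to 1000 bp and 150.2 for 35 peaks in longer ones. The quartiles of all 4 bins overlapped. The distance to the nearer end grew with the space, from a median of 31.5 bp in the shortest bin through 116 and 204 to 342 bp in the longest. A summit cannot be farther from its nearer end than the midpoint is, so longer spaces allow longer distances. Peaks in the shortest spaces included cux-7 with C07H6.2 (163 bp between the ends) and exoc-7, a subunit of the exocyst, with tufm-2 (170 bp, signal 221).

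Of the 327 promoters, 314 held 1 summit and 13 held 2. In 8 of the 13 each summit was nearest to the start on its own side. The summits of a pair were 199 to 571 bp apart, with a median of 202 bp, in spaces of 412 to 1049 bp. Apart from gaps of 217, 279 and 571 bp, all lay between 199 and 206 bp, whatever the length of the space. The part that the peak caller has in this nearly constant gap was not tested. The widest pair lay between ecps-1 and atx-2, with a summit of signal 373 at 215 bp from ecps-1 and another of 562 at 52 bp from atx-2. These ranked 70 and 28 in replicate 1 and 121 and 26 in replicate 2, so both replicates resolved them. Between F29B9.11 and jmjd-1.2 the signals were 522 and 283, and a single peak covered both summits in each replicate. This was so in 11 of the 13 pairs, which therefore count 1 replicate peak as support for 2 summits.

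Listed genes of protein synthesis and RNA processing flanked these peaks more often than protein-coding genes as a whole. In all 654 genes flanked a peak, and 171 of them were in any of the lists. The background is 5.34% of all 12248 protein-coding genes of chromosomes I to IV. It is 19.3% (647) of the 3348 genes that face a divergent neighbour in a space of up to 2000 bp. These facing genes include those in spaces shorter than 50 bp or near small RNA genes, which the shares of spaces left out. Of 72 cytosolic ribosomal protein genes, 29 (40.3%, interval 28.9 to 52.5) flanked a peak, with 37.5% in replicate 1 and 31.9% in replicate 2 (34.7% ± 3.93, SD, n = 2). This list also has more genes in head-to-head position than the average: 43 of the 72 (59.7%, against 27.3% of all genes). Of those 43, 29 (67.4%) flanked a peak, set beside the 19.3% of all facing genes. The lists were made by gene symbol, and a peak between a listed gene and its neighbour counts for the list whichever gene is nearer. Genes whose symbols do not match the pattern of a list were not counted in it, so counts, limits and leading genes hold for the listed symbols only.

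The ribosomal protein gene was the nearer of the 2 neighbours in 13 of 29 cases, and the median signal at these genes was 129. The strongest were rpl-15 (599; ranks 21 and 24), rpl-20 (389.9; ranks 98 and 72) and rpl-12 (307; ranks 192 and 181). The summit at rpl-12 was 9 bp from its start and 384 bp from lin-54, a DNA-binding subunit of the DREAM complex, which represses cell cycle genes. A single peak lay between 2 ribosomal protein genes, rps-14 and rpl-36; its signal was 93.0 and its rank 3687 in replicate 1, outside the top list, and 2001 in replicate 2. The other lists of protein synthesis were lower: 13 of 59 translation factors and tRNA synthetases (22%), with ears-2, eif-3.E and gfm-1, a mitochondrial elongation factor, the strongest listed at 703, 415 and 229, and 9 of 60 mitochondrial ribosomal proteins (15%), led by mrpl-18 at 336, mrpl-12 at 150.2 and mrps-7 at 134. The symbol pattern missed iff-2, translation factor eIF5A, which flanked a peak of signal 380.3 (ranks 94 and 93) with F54C9.14.

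Splicing factors flanked a peak in 16 of 50 cases (32%; 31.0% ± 1.41 over the replicates). The strongest were prp-19 (515), snr-1 (494) and smu-2 (206), whose start was 12 bp from the summit. In 2 cases a splicing factor stood on each side. The peak between rsp-2 and rsp-1, both SR proteins, had signal 188 and ranks 577 and 967. The peak between snr-3 and rsp-5 had signal 85.9 and ranks 2236 and 5345, so it was in the top list of replicate 1 alone.

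Chaperones flanked a peak in 13 of 50 cases (26%; 25% ± 1.41). They were led by hsp-60, the mitochondrial chaperonin (385; ranks 88 and 76), dnj-29 (356; ranks 76 and 212) and dnj-28 (325; ranks 261 and 116), both with the J domain that activates HSP70 proteins. The list also held cct-1, cct-2, cct-6 and cct-8 of the cytosolic chaperonin. Genes for vesicle sorting and secretion did so in 18 of 92 cases (19.6%), led by vps-51 (655), snx-13 (494) and copz-1, a coat protein of COPI vesicles (287).

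Cell cycle and replication genes flanked a peak in 14 of 80 cases (17.5%; 16.25% in each replicate). The strongest were lin-35 (655), bub-1, a spindle checkpoint kinase (274; ranks 253 and 309), and pola-1, a subunit of DNA polymerase alpha (252; ranks 481 and 215). The peak at bub-1 lay 262 bp from its start and 397 bp from lin-61, a chromatin gene. Listed chromatin regulators did so in 11 of 73 cases (15.1%), with lin-35, jmjd-1.2 (522) and lin-54 (307) the strongest of the list. The list did not hold chaf-2, whose peak was stronger than the last 2 (621). Counting the strongest summit at each gene, the chromatin gene was nearer than its neighbour in only 1 of these 11. The second, weaker summit at jmjd-1.2 (283) lay 247 bp from its start and 543 bp from that of F29B9.11.

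Head-to-head position was taken by 30.1% to 60% of the genes of these lists, and among their facing genes the share with a peak was 53.3% for splicing factors, 57.1% for chaperones and 47.4% for vesicle genes. It was 50% for chromatin regulators, 42.4% for cell cycle genes, 40.6% for translation factors and tRNA synthetases and 39.1% for mitochondrial ribosomal proteins. All 7 shares stood above the 19.3% of all facing genes. They rest on 21 to 38 facing genes each and have no interval.

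Histone genes flanked a peak in 9 of 46 cases (19.6%, and 19.6% in each replicate alone), although 39 of the 46 (84.8%) face a divergent neighbour. Of the facing histone genes 23.1% flanked a peak, close to the background of 19.3%. Of these genes 8 stood in 4 histone pairs: his-67 with his-68 (509.8; ranks 41 and 37), his-61 with his-62 (243; ranks 252 and 684), his-31 with his-32 (206; ranks 802 and 300) and his-60 with his-59 (185; ranks 762 and 784). The ninth was htz-1, the variant H2A.Z, beside wapl-1 (170.1). Histone genes are near-identical copies, and how reads that match several copies were placed is not given in the sources used here, so which copy was bound is uncertain.

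Listed respiratory chain genes flanked a peak in 7 of 37 cases (18.9%), with atp-2 and isp-1 strongest in the list at 147 and 134, followed by mev-1 at 126. The 7 include lpd-7, which its symbol put in the list and which is not a respiratory protein. Of facing genes of the list 31.8% did so. Most subunits of complex I, the NADH dehydrogenase, have ndu symbols, which the list missed. Of 23 such genes 9 (39.1%) flanked a peak, counted after their values were seen, and the strongest were ndua-2 (356; ranks 76 and 212), nduc-2 (247; ranks 410 and 365) and nduf-2.2 (179.6; ranks 696 and 955). Proteasome and ubiquitin genes did so in 10 of 67 cases (14.9%), led by ubc-6 (262), rpn-3 (219) and rpn-7 (198). Of these 67 genes 32 (47.8%) face a divergent neighbour, and 31.25% of those 32 flanked a peak. Mediator and general transcription genes, with 5 of 59 (8.47%, interval 2.81 to 18.7), were not distinguishable from the background at this number of genes. Of the 17 that face a divergent neighbour 29.4% flanked a peak. The strongest were taf-7.2 (210.1), mdt-19 (199) and taf-4 (166).

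Chemoreceptor, F-box and C-type lectin genes seldom flanked a peak. Only 5 of 425 chemoreceptor genes did so (1.18%, interval 0.383 to 2.72), with sre-1 (322), sri-5 (208) and srrt-1 (171) strongest; srrt-1 was put in the list by its symbol, and its product is not a chemoreceptor but a homologue of the RNA-processing factor Serrate. The F-box and MATH-BATH genes had 5 of 335 (1.49%; fbxb-85 at 231, fbxc-44 at 197 and bath-42 at 170.2), C-type lectins 2 of 151 (1.32%; clec-140 at 167 and clec-104 at 95.8) and collagens 3 of 111 (2.70%, interval 0.561 to 7.70, which holds the background of 5.34%; col-71 at 217, col-2 at 216 and col-38 at 154). Chemoreceptor genes face a divergent neighbour in 18.8% of cases, and 6.25% of those that do flanked a peak. The share among facing genes was 5.75% for F-box and MATH-BATH genes, 5% for C-type lectins and 11.5% (3 of 26) for collagens, beside the 19.3% of all facing genes.

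None of the 79 nuclear hormone receptor genes flanked a peak, which allows a share of up to 4.56%. Nor did any of the 50 homeobox and bHLH genes with ceh or hlh symbols (up to 7.11%). Only 12 and 9 genes of these lists face a divergent neighbour, too few to tell 0 from the 19.3% of all facing genes. Outside those symbols, aha-1, a bHLH-PAS factor, flanked a peak with C25A1.15 (109.7; ranks 1533 and 2110), as did duxl-1 with ZC204.14 (91.3; ranks 3042 and 2377). None did among 21 pharynx genes (up to 16.1%), 18 neuronal genes (up to 18.5%) and 18 Notch pathway genes (up to 18.5%). These last 3 lists have only 3, 1 and 4 genes that face a divergent neighbour, so they could hardly have held one. In replicate 2 alone 1 Notch gene flanked a peak. Among 23 Wnt genes it was mig-5, a Dishevelled protein, beside cct-1 (163). Of 26 body wall muscle genes cap-1 (196) and cap-2 (204), which cap actin filaments in many cell types, did so.

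**Figure D4:**
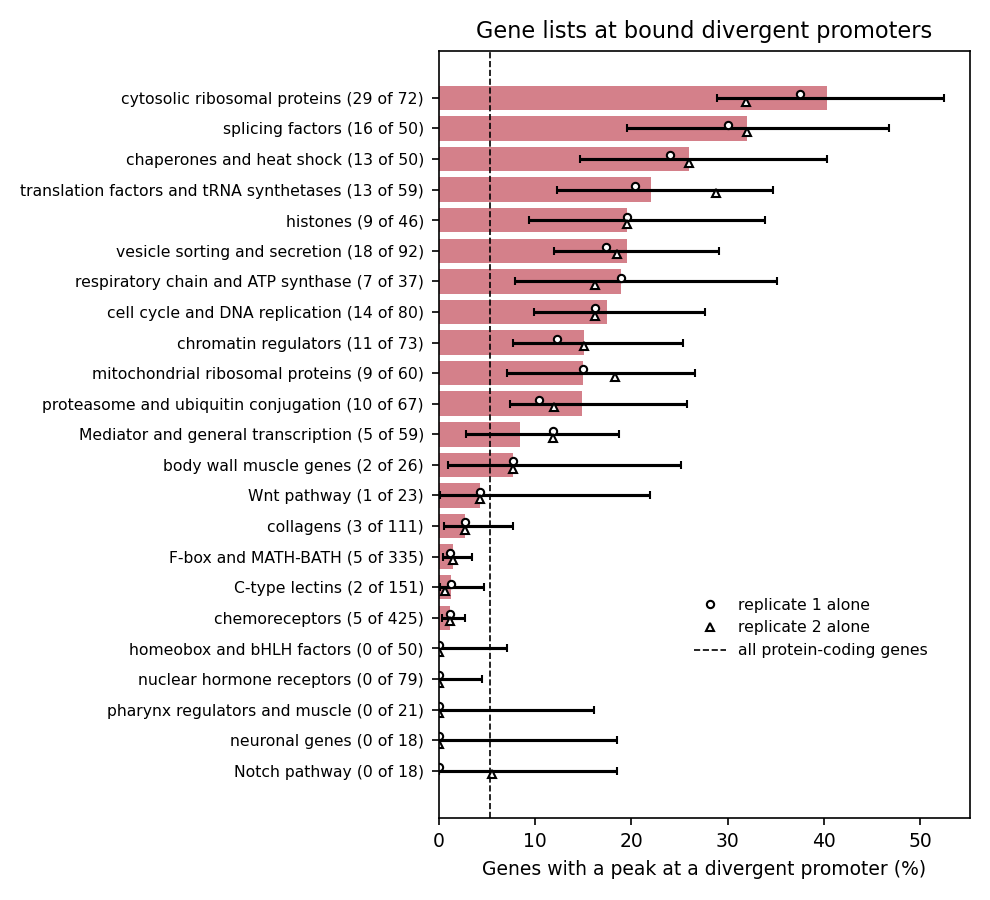
Share of the genes of each of 23 lists that flanked a peak at a divergent promoter (x axis, percent), with exact 95% intervals; the numbers beside each name are genes with a peak and genes on chromosomes I to IV. Open circles and triangles are replicate 1 and replicate 2 alone, and the dashed line is the 5.34% of all protein-coding genes. Lists go by gene symbol, and the respiratory list lacks the ndu genes. Cytosolic ribosomal proteins (40.3%), splicing factors (32%) and chaperones (26%) are at the top, and 5 lists are at 0 in the shared set.

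The T-box sequence was rare at these summits. GGTGTGA, on either strand within 50 bp of the summit, was found in 2 of 340 windows (0.588%, interval 0.0713 to 2.11), in 0.853% of one-strand peaks and in 1.94% of other peaks. It was found in 0.405% of 741 windows at the midpoint of divergent spaces longer than 200 and up to 1000 bp that held no summit, and in 0.588% of 680 windows 500 bp to either side of the 340 summits. Most of the windows 500 bp away lay past a 5′ end, since the upper quartiles of the distance to it were 389 bp (plus strand) and 408.5 bp (minus strand). The intervals of GGTGTGA overlapped between bound and unbound divergent spaces, so a difference was not detectable. The peaks are those shown above: between syf-2, a splicing factor, and K04G7.1 (signal 172; ranks 882 and 957) and between Y4C6B.7 and Y4C6B.1 (signal 92.1; ranks 2234 and 4216). The shorter GGTGTG was in 5.88% of the 340, in 5.12% of one-strand peaks, in 7.97% of other peaks and in 3.78% of unbound spaces.

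Elements found at many worm promoters were present in more of the 340 windows than GGTGTGA, and CTGCGTCT and the GA repeat had lower shares than at other peaks. CTGCGTCT was in 28 windows (8.24%, interval 5.54 to 11.7), in 10.2% of one-strand peaks, in 14.4% of other peaks and in 0.675% of unbound spaces. The GA repeat GAGAGAGA was in 11 windows (3.24%, interval 1.63 to 5.72), in 6.83% of one-strand peaks, in 15.6% of other peaks and in 0.405% of unbound spaces. The GC box GGGCGG ran in the other order, with 10.6% (7.53 to 14.4) at divergent promoters, 9.04% at one-strand peaks, 7.64% at other peaks and 2.56% in unbound spaces. The intervals at divergent promoters and at other peaks did not overlap for CTGCGTCT (12.2 to 16.8 at other peaks) and the GA repeat (13.3 to 18.1), whereas for the GC box they did (6.02 to 9.54). Those at one-strand peaks overlapped the divergent ones for CTGCGTCT (7.90 to 13.0), the GA repeat (4.92 to 9.18) and the GC box (6.85 to 11.7). At least 1 of these 3 elements was in 69 windows (20.3%), in 24.6% of one-strand peaks and in 32.3% of other peaks, and 271 of the 340 windows held none.

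Both replicates gave the same picture of these elements. In the peaks of each replicate alone at divergent promoters, CTGCGTCT was in 6.77% ± 0.118 (SD, n = 2), GAGAGAGA in 3.38% ± 0.376 and GGGCGG in 10.9% ± 0.408. The E-box CACGTG (2.94% of the 340, 1.35% of unbound spaces) and the E2F-like TTTCGCGC (2.06% and 0.675%) were infrequent, and TTCCCGCC was in 2 windows. CCAAT was in 16.2% of windows at divergent promoters (12.4 to 20.5) and in 14.6% of unbound spaces (12.1 to 17.3), so a difference was not detectable; the median signal was 205 in the 55 windows with it and 145 in the others. The CTGCGTCT peaks went the other way, with a median of 127 in windows with it and 150.2 without. The remaining motifs were split between higher and lower medians, and these medians have no intervals.

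**Figure D5:**
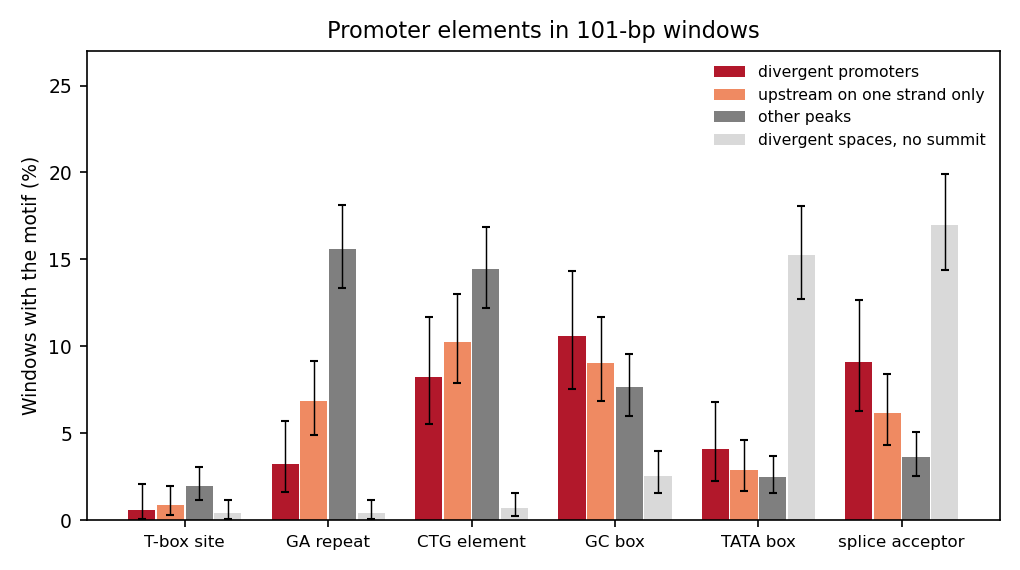
Share of windows reaching 50 bp to each side of the centre that hold each of 6 elements on either strand (y axis, percent) for summits at divergent promoters (red), peaks upstream on 1 strand only (orange), other peaks (dark grey) and the midpoints of divergent spaces with no summit (light grey), with exact 95% intervals. The T-box site (GGTGTGA) is at 0.588% at divergent promoters, the GA repeat is highest at other peaks (15.6%), and the TATA box and the splice acceptor are highest in unbound spaces (15.2% and 17%).

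The summit windows were rich in G and C. Their median GC share was 47.5% (quartiles 42.6 and 51.5), against 48.5% at one-strand peaks, 49.5% at other peaks, 38.6% at 500 bp to either side and 33.7% at the midpoints of unbound divergent spaces. Strong peaks were not all GC-rich: on chromosome I, none of whose windows is printed above, the windows between vps-51 and lin-35 (signal 655) and between Y71G12B.30 and chaf-2 (621) had GC shares of 34.7% and 35.6%. TATAAA was in 4.12% of the 340 windows and in 15.2% of unbound spaces, and TTTCAG, the worm splice acceptor consensus, in 9.12% and 17%. An A and T rich element is less likely in a GC-rich window, and the part of base composition in these shares was not tested.

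Among all 2080 6-base words, with reverse complements counted as one, GCGCAC stood furthest above unbound spaces in percentage points; it is named after its values were seen. It was in 63 of the 340 windows (18.5%, interval 14.5 to 23.1), in 11.6% of one-strand peaks, in 6.24% of other peaks, in 3.37% of unbound spaces and in 0.735% of the windows 500 bp away. In each replicate alone it was in 16.5% and 19.1% of windows at divergent promoters (17.8% ± 1.87, SD, n = 2). Since it was picked by its share within 50 bp of these summits, its nearness to them is no separate result. The windows 500 bp away mostly lay past a 5′ end. Unbound midpoints had a median GC share of 33.7%, against 47.5% at the 340. The part of base composition in the shares of GCGCAC was not tested. The word is present in 4 of the 8 strongest windows printed above and in the window between syf-2 and K04G7.1. In the window between Y41D4A.6 and Y41D4A.4 it covers the summit itself.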

How the data were processed

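Chromatin immunoprecipitation and sequencing of tagged TBX-2 was analysed in 2 biological replicates of 1 group. The deposited lists on ce11 were used: a relaxed list for each replicate (23800 and 23216 peaks), a relaxed list from pooled alignments (25747) and the optimal list (3053) thresholded on irreproducible discovery, each called against a control per the labels' accompanying file lists. For the aligner, the caller and the threshold nothing is stated in the sources used here. The depth of the libraries is unknown. The pooled relaxed list is labelled as holding peaks and background. Lists on ce10 were not used. The peak signal deposited by the authors has a scale of its own in each list and served to rank peaks. The -log10 of a q-value deposited by the authors had the single value 2.98 over the optimal list and served no ranking. Summits are the start plus the offset in the authors' files, and coordinates in the text are 1-based.

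Gene models came from Ensembl release 115 of WBcel235, which is the ce11 sequence; no peak ended past its chromosome (0 peaks). A peak took the strongest replicate peak it overlapped by at least 1 bp, and the top list of a replicate was its strongest 3053 peaks. A divergent space lies between neighbouring 5′ ends of a minus-strand and a plus-strand gene, and a tandem space between a gene's 5′ end and the 3′ end of its neighbour. Gene lists (23) were made from symbols and 11 motifs were searched for, in both orientations, up to 50 bp from the summit. Intervals are exact (Clopper-Pearson), and those of medians come from order statistics. Genes named are both neighbours of the 20 strongest peaks, up to 3 strongest of each list, and cases singled out after their values were seen: pairs in 1 list, the largest rank differences, promoters with 2 summits, short spaces, list genes whose symbols misled and genes that the lists missed. The members, lists and motifs were chosen with earlier results of these data known. Alternatives were other windows, all annotated starts, small RNA neighbours kept, the stronger peaks, repeated rows collapsed, stricter overlap, other motif windows and each replicate alone. Class assignment, motif search and overlap were tested on simulated data. Python 3.11.15 with pandas 2.3.3, numpy 2.4.6, scipy 1.17.1 and matplotlib 3.10.9 was used.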

Additional observations from a re-analysis of the deposited data

How the results depend on the processing

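Of 62 recomputed values for the main counts, medians and shares, 43 stayed within 1.5 times of the count or within the interval or replicate spread of the reported value. With an upstream window of 500 bp the share of divergent spaces with a summit was 14.1% and the median distance to the nearer end 144 bp, and with 2 kb they were 22.3% and 182 bp. Keeping peaks near small RNA genes gave 20.1% of spaces, and spaces of up to 1000 bp gave 23.9%. The stronger 0.5 of the optimal peaks, which holds fewer peaks and by construction higher signals, left 209 peaks with a median signal of 204, of which 99.5% were in both top lists, 12.2% of spaces, 406 flanking genes and 15 ribosomal protein genes. The share in both top lists was 66.5% with a reciprocal overlap of 50% and 53.8% with top lists 0.5 times as long. The GA repeat was in 5.88% of windows of 100 bp to each side and 1.47% of those of 25 bp, and CTGCGTCT in 4.71% of those of 25 bp, since a longer window holds more words. Leaving out either replicate gave 321 to 329 peaks, 18.4% to 18.8% of spaces, a distance of 154 to 161 bp, 618 to 626 flanking genes and 23 to 27 ribosomal protein genes. It gave GGTGTGA in 0.304% to 0.312%, GAGAGAGA in 3.12% to 3.65% and CTGCGTCT in 6.69% to 6.85% of windows. Of the 327 promoters, 254 held a summit in each replicate alone and 323 in at least 1 of them. For the other motifs and gene lists, 104 of 128 recomputed values stayed within these limits and 24 moved. No paired analysis was possible because there was 1 group, so no groups share replicate numbers. The depth of the libraries is unknown, and the intervals cover counting error only.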

Other observations

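Entries of the pooled relaxed list outside the optimal set were seldom at divergent promoters. That list is labelled as holding background as well as peaks, and the part of background in the share was not tested. On chromosomes I to IV, 785 of its 17229 entries (4.56%) met the positional rule. Of the 15194 that are not in the optimal set 445 did (2.93%), against 16.7% of the optimal peaks. The weakest peak of the 340 had a pooled signal of 81.8. It lay between hsb-1, a binding partner of the heat shock factor, and let-99, a regulator of spindle position. The strongest pooled peak outside the optimal set on these promoters had 81.5, and pooled signal did not overlap between peaks inside and outside the set there. The set was thresholded by the authors, so this lack of overlap is no separate result. The peak at let-99 ranked 3253 in replicate 1 and 3238 in replicate 2 and was 1 of the 4 in neither top list.

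Further 6-base words set the bound divergent promoters beside the unbound ones, again as a description of words picked by their values. GAGCGC was in 17.6% of the 340 windows and 3.51% of unbound spaces, CGTGGC in 15.3% and 2.97%, CGCTCC in 14.7% and 2.43%, and GAGACC in 16.5% and 4.86%. At one-strand peaks the same words were in 13.7%, 8.87%, 9.73% and 11.1% of windows, and at other peaks in 7.75%, 4.95%, 3.55% and 6.57%. GACGCA, which is part of the reverse complement of CTGCGTCT, was in 17.1%, 16.0% and 17.1% of the windows at divergent, one-strand and other peaks. At the opposite end AAAAAA was in 26.5% of the 340 windows and 48.7% of unbound spaces, and TTAAAA in 11.8% and 32.8%. The part of base composition in these shares was not tested.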
